A study of Mus musculus with 2 samples.

Results

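The Mir130 and Mir301 family consists of miRNA genes whose 3′ arms begin with the same bases. Its members were taken by gene name from GENCODE release M21: Mir130a, Mir130b, Mir301 (also called Mir301a) and Mir301b, 4 of the 2202 annotated miRNA genes. The genes were chosen by name, and the family was selected on read counts per gene in these libraries that were already known, so its levels are given as a description with no test.

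The series holds 1 group, myotubes that had been differentiated from C2C12 cells for 72 h, with 2 libraries from separate biosamples labelled biological replicates 1 and 2. C2C12 is a myoblast line that came from injured thigh muscle of C3H mice and fuses into multinucleated fibres in culture. Both biosamples trace to the same donor record, and the labels list no treatment, no genotype change and no undifferentiated sample. Values were therefore compared between genes and between the 2 libraries, and the labels name the work as an RNA evaluation.

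A miRNA is cut from a hairpin as a 5′ and a 3′ arm, and the arm that is loaded into an Argonaute protein pairs with target mRNAs mainly through its seed, bases 2 to 8. Genes that share a seed are grouped as a family because they can bind the same sites. The miR-130 family is known for lowering PPARγ, the receptor that drives fat cell formation, in preadipocytes, and miR-130a is known from human endothelial cells for acting on the homeobox genes GAX and HOXA5.

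The 3′ arms listed by RefSeq (GRCm38.p6) are shown with the seed in capitals, because the shared seed defines the family.
miR-130a-3p: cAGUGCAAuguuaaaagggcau
miR-130b-3p: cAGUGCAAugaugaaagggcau
miR-301a-3p: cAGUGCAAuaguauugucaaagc
The 3 arms carried the same seed, AGUGCAA, which stood at bases 2 to 8 of 7 of the 1738 mature arms in the table (0.403%). Counted from the 5′ end, miR-130a-3p differed from the best ungapped stretch of the Mir130b hairpin at 2 positions (U11A and A13G), both outside the seed. From that of the Mir301 hairpin it differed at 10 positions.

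The 5′ arms fell into other seed groups and are shown in the same way.
miR-130a-5p: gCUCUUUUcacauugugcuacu
miR-130b-5p: aCUCUUUCccuguugcacuacu
miR-301a-5p: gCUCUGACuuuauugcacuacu
miR-301b-5p: gCUCUGACuagguugcacuacu
The arms of Mir301 and Mir301b shared the seed CUCUGAC, which no arm outside these 2 genes held. The seed of miR-130a-5p, CUCUUUU, was held by 1 arm in the table, its own. The deposited counts are per gene and do not separate the 2 arms of a hairpin, so a level given for a gene is the sum of both.

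The annotated hairpins are shown with the bases AGUGCAA in capitals, since they hold the family's shared letters in all 4 genes.
Mir130a: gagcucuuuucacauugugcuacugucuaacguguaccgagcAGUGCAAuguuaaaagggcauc
Mir130b: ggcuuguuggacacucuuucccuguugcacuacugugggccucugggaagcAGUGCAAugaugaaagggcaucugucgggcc
Mir301: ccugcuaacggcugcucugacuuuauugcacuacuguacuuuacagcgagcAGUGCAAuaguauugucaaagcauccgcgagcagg
Mir301b: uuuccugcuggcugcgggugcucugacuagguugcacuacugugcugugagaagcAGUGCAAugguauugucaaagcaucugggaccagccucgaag
The motif AGUGCAA, searched as RNA on the annotated strand, was found in 12 of 1005 hairpins (1.19%). Its reverse complement UUGCACU was found in 14 hairpins (1.39%), among them those of Mir130b, Mir301 and Mir301b but not that of Mir130a. Mir301 and Mir301b were the closest pair. The sequence of miR-301a-3p matched the Mir301b hairpin at 22 of 23 bases, with the single substitution A10G. The longest run of letters that the 2 hairpins had in common was 16 bases. No member held a run of 20 bases that occurs in any other annotated miRNA gene, on either strand, apart from genes at the same place. Mir130a shared at most 17 bases with another hairpin, that of Mir6389.

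The members lie at 3 places on the mm10 assembly. Mir130a (ENSMUSG00000065484.1, chr2:84741115-84741178, minus strand) overlaps no other annotated gene. It lies 990 bases from Gm19426 and 2459 bases from Ypel4, both annotated as protein-coding. Mir301 (ENSMUSG00000065589.1, chr11:87113004-87113089, plus strand) lies in an intron of Ska2 on the same strand, whose protein belongs to the SKA complex that ties kinetochores to spindle microtubules. Mir130b (ENSMUSG00000065572.1, chr16:17124061-17124142, minus strand) and Mir301b (ENSMUSG00000076288.1, chr16:17124400-17124496, minus strand) are neighbours, with 257 bases between them. Both lie in introns of the protein-coding gene 2610318N02Rik, on its strand and in no exon of its 3 overlapping transcripts.

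Replicate 2 held 9865298 reads on miRNA genes and replicate 1 held 7581366, and levels are given as CPM, read counts scaled to the same total of these reads in each library. A count of 3 was worth 0.304 CPM in replicate 2, against 0.396 CPM in replicate 1. Reads that mapped to several places are in no gene count, so the levels of the marker lists hold for counted reads only. None of the 8 listed myotube miRNAs was at 0, but only 5 of 8 were at 2 CPM or more in both libraries. Their summed level was 428244 CPM in replicate 2, against 355284 CPM in replicate 1. Nearly all of this counted sum was Mir206, at 416794 CPM in replicate 2, against 340841 CPM in replicate 1. Mir133b of this list shares a run of 20 bases with 2 other miRNA genes. How many reads of the listed genes went uncounted was not tested, so low levels here and the part of Mir206 in the sum are uncertain. The 2 endothelial miRNAs, Mir126a and Mir126b, summed to 44.5 CPM in replicate 2, against 219 CPM in replicate 1. Of these, 1 was at 2 CPM or more in both and neither was at 0. The 5 blood miRNAs came to 183 CPM in replicate 2, against 105 CPM in replicate 1, with 2 at 2 CPM or more in both and none at 0. Of 6 neuronal genes, 5 were at 0 in both libraries (all 3 Mir124a genes, Mir9-1 and Mir9-2). The neuronal list summed to 0.101 CPM in replicate 2, against 0 CPM in replicate 1. A count of 0 does not show that a miRNA was absent, because reads that mapped to several places were not counted. Intervals below are 95% exact Clopper-Pearson intervals, which cover counting error of reads only.

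Mir130a dominated the family. It had 185974 reads in replicate 2, or 18851 CPM (interval 18767 to 18936), and 105772 reads in replicate 1, or 13952 CPM (13868 to 14035). Its mean was 16401 ± 3465 CPM (SD, n = 2), and it ranked 9th of all miRNA genes in replicate 2 and 11th in replicate 1. All ranks are by counted reads. Genes whose reads mapped to several places can therefore rank too low.

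Mir130b, which has the same seed and differs from it at 2 bases of the 3′ arm, had 19088 reads or 1935 CPM (1908 to 1962) in replicate 2 and 8856 reads or 1168 CPM (1144 to 1193) in replicate 1. Its mean was 1551 ± 542 CPM (SD, n = 2). It ranked 36th in replicate 2 and 59th in replicate 1, the widest shift of rank among the 3 leading members.

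Mir301, the intronic gene of Ska2, had 3736 reads or 379 CPM (367 to 391) in replicate 2 and 2235 reads or 295 CPM (283 to 307) in replicate 1. Its mean was 337 ± 59.3 CPM (SD, n = 2), and it ranked 87th in replicate 2 and 102nd in replicate 1. Mir301b had 70 reads or 7.10 CPM (5.53 to 8.96) in replicate 2 and 39 reads or 5.14 CPM (3.66 to 7.03) in replicate 1. Its mean was 6.12 ± 1.38 CPM (SD, n = 2), above 2 CPM in both libraries, and it ranked 229th in replicate 2 and 239th in replicate 1.

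**Figure D1:**
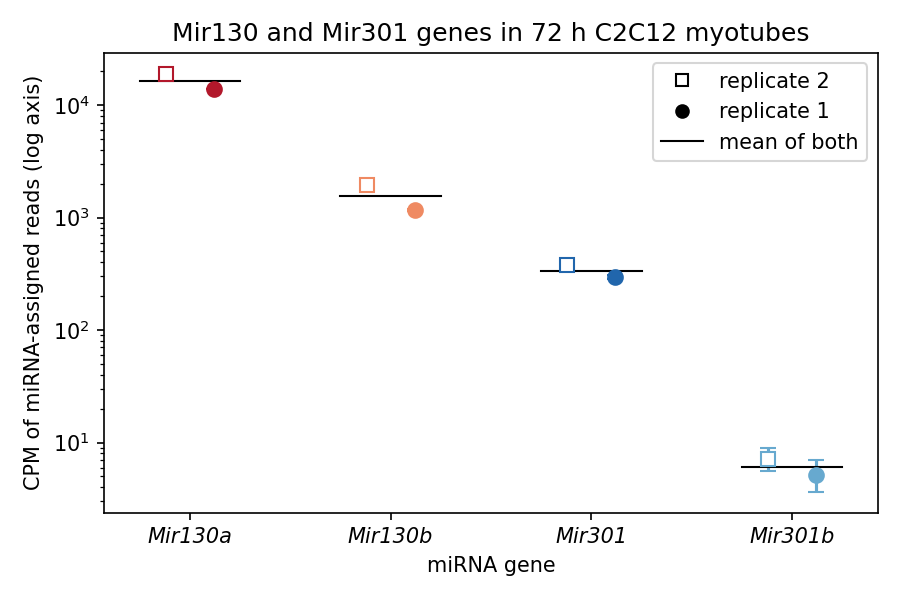
Level of each Mir130 and Mir301 gene in CPM of miRNA-assigned reads, on a log axis, for replicate 2 (open squares) and replicate 1 (filled circles); error bars are 95% exact Clopper-Pearson intervals and black lines the mean of both libraries. The 4 genes stand apart from each other, from 16401 CPM for Mir130a to 6.12 CPM for Mir301b, and each is higher in replicate 2.

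The order Mir130a, Mir130b, Mir301, Mir301b was the same in both libraries, and no neighbours in that order overlapped. The lower Mir130a value, 13952 CPM, exceeded the higher Mir130b value, 1935 CPM. The lower Mir130b value, 1168 CPM, exceeded the higher Mir301 value, 379 CPM, and the lower Mir301 value, 295 CPM, exceeded the higher Mir301b value, 7.10 CPM. Small RNA reads span an arm rather than the hairpin, so levels were not divided by length. Divided by the hairpin length of 64 to 97 bases, the order was the same, from 295 CPM per base for Mir130a in replicate 2 and 218 CPM per base in replicate 1 to 0.0732 CPM per base for Mir301b in replicate 2 and 0.0530 CPM per base in replicate 1.

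Mir130a exceeded Mir130b by 3.43 ± 0.21 on the log2 scale (SD, n = 2), or 9.74 times in replicate 2 and 11.9 times in replicate 1. Mir130b exceeded Mir301 by 2.17 ± 0.26, and Mir301 exceeded Mir301b by 5.78 ± 0.07 (log2, SD, n = 2). Mir130a exceeded Mir301 by 5.60 ± 0.05 and Mir301b by 11.38 ± 0.02 (log2, SD, n = 2). The ratios that involve Mir130b had the larger SDs, that to its neighbour Mir301b included (0.19). An SD over 2 libraries can be small while counting error is large. Mir301b had only 70 reads in replicate 2 and 39 in replicate 1. The SDs of 0.07 and 0.02 for its other ratios therefore do not make these the more precise. A two-sided exact permutation test on 2 paired libraries cannot give a p below 0.5, so the ratios were not tested. All are ratios of read counts. Whether the molecules stand in the same ratios was not tested, and the SDs and intervals do not measure it.

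Together the 4 genes took 2.12% of miRNA reads in replicate 2 (interval 2.11% to 2.13%) and 1.54% in replicate 1 (1.53% to 1.55%), or 1.83% ± 0.407 (SD, n = 2). Reads that mapped to several places are not in this total. Mir130a made up 89.04% of family reads in replicate 2 (88.90% to 89.17%) and 90.48% in replicate 1 (90.31% to 90.65%). Mir130b made up 9.14% (9.02% to 9.26%) in replicate 2 and 7.58% (7.42% to 7.73%) in replicate 1. These intervals hold counting error within each library and not the spread between cultures, so with 1 library per replicate the change in shares was not tested. Mir301 contributed 1.79% in replicate 2 and 1.91% in replicate 1. Mir301b contributed 0.0335% in replicate 2 (0.0261% to 0.0423%) and 0.0334% in replicate 1 (0.0237% to 0.0456%).

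The level of Mir301b stood far below that of its neighbour Mir130b. Mir130b exceeded Mir301b by 7.94 ± 0.19 on the log2 scale (SD, n = 2), or 271 times in replicate 2 and 224 times in replicate 1. The comparison set for this gap was chosen after the values were seen. It held all 51 pairs of miRNA genes that follow each other on a strand within 10 kb, with at least 100 CPM in the higher gene. The median absolute log2 ratio over these pairs was 3.13, and the Mir130b and Mir301b pair ranked 6th. Of the 5 pairs above it, 4 hold a gene with a run of 20 bases found in another miRNA gene: Mir29a and Mir29b-1, Mir100 and Mirlet7a-2, Mirlet7c-2 and Mirlet7b, and Mir99a and Mirlet7c-1. Reads of such genes can map to several places and are then not counted. Whether this set the ratios of these pairs was not tested. The other pair above it was Gm27320 and Mir328, in which Gm27320 had no read. Among the 28 pairs with no such run, the median was 2.54 and the Mir130b and Mir301b pair ranked 2nd. The rule covers exact runs only, so it does not cover the match of miR-301a-3p to the Mir301b hairpin at 22 of 23 bases.

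**Figure D2:**
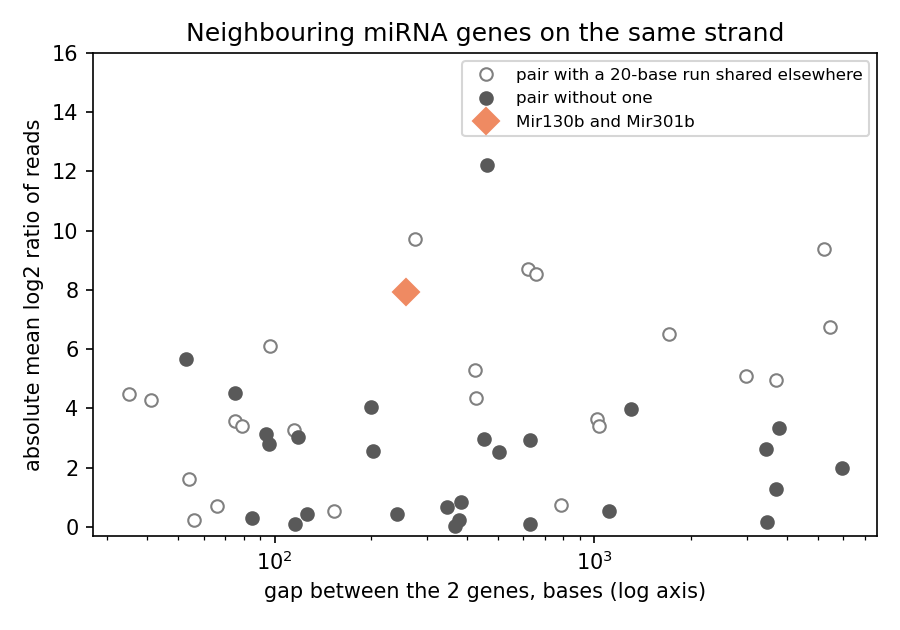
Absolute mean log2 ratio of reads between neighbouring miRNA genes on the same strand, against the gap between them in bases on a log axis, for 51 pairs with at least 100 CPM in the higher gene; open circles are pairs with a 20-base run shared with another miRNA gene, filled circles pairs without a shared run. The pair of Mir130b and Mir301b (diamond) lies at a gap of 257 bases and a log2 ratio of 7.94, against a median of 3.13 over all pairs and 2.54 over the 28 pairs without a shared run.

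The hairpins lengthened, and their predicted folds became more stable in total, in the reverse order of the levels. The minimum free energy from RNAfold was -22.1 kcal/mol for Mir130a, -30.1 for Mir130b, -37.0 for Mir301 and -39.1 for Mir301b, which per base was -0.345, -0.367, -0.430 and -0.403 kcal/mol. Per base, Mir301 rather than Mir301b had the most negative energy. With 4 genes this is a description, and the relation was not tested. The GC content was 45.3% for Mir130a, 56.1% for Mir130b, 48.8% for Mir301 and 53.6% for Mir301b. Members had no read on the opposite strand in either library, and their counts were the same when strand was ignored. Whether reads of Mir301b were assigned to Mir301, which differs at A10G, was not tested.

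Each member was higher in replicate 2 than in replicate 1. Folds are scaled by trimmed mean of M values (TMM) effective library sizes. Mir130b was 1.69-fold higher (interval 1.65 to 1.74), Mir130a 1.38-fold (1.37 to 1.39) and Mir301 1.31-fold (1.24 to 1.38). Mir301b was 1.40-fold higher with an interval of 0.939 to 2.14, so at 109 reads in total its difference was not resolved from counting error. By the exact two-sided binomial test with Benjamini-Hochberg adjustment over all 415 genes with 10 or more reads, 3 of 4 members passed an adjusted p of 0.05, all higher in replicate 2, and across all tested genes 55.7% passed in either direction and 25.3% passed higher in replicate 2. Over only the 240 genes with 100 or more reads in total, 205 passed and 88 passed higher in replicate 2, with the same 3 members among them. Over the 415 genes with a 2-fold difference also required, no member was called, against 21.2% of tested genes. The adjusted p was 4.13e-24 for Mir301 and 0.159 for Mir301b by this exact test, and those of Mir130a and Mir130b were below the range of the software. Without regard to direction, the members' own differences were of ordinary size. The median log2 difference was 0.48 over the 4 members and -0.02 over all 415 genes, and the median absolute difference over all 415 was 0.61. The absolute difference of Mir130b was larger than those of 59.3% of tested genes, that of Mir301b than 42.7%, that of Mir130a than 40.5% and that of Mir301 than 34.5%. With direction kept, 82.7% of tested genes had a lower difference than Mir130b, 75.7% than Mir301b, 74.0% than Mir130a and 70.6% than Mir301. The common biological coefficient of variation between the libraries, from edgeR, was 0.426 over the 274 genes at 2 CPM or more in both. The binomial test leaves this spread out, so it compares the libraries and not conditions.

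**Figure D3:**
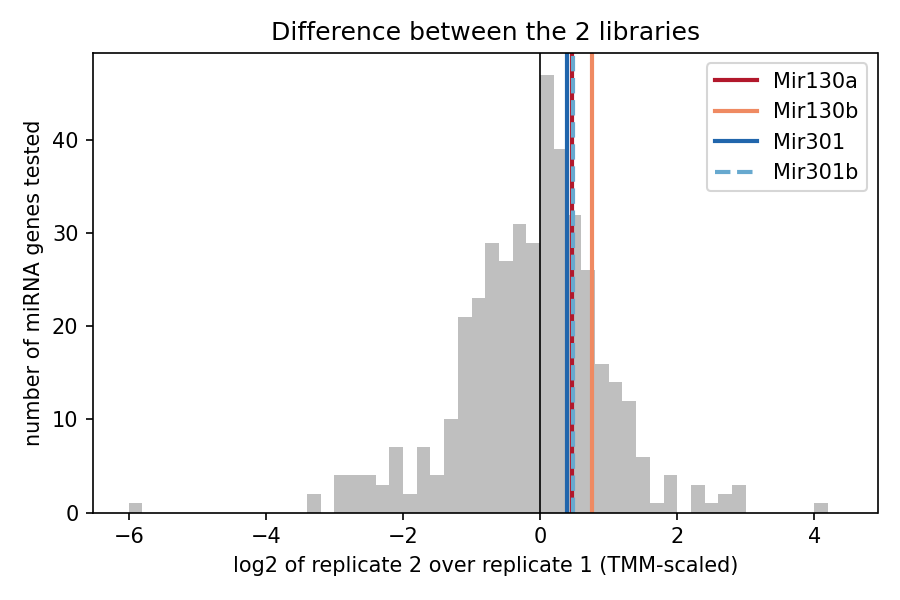
Histogram of the log2 ratio of replicate 2 over replicate 1 (TMM-scaled) for the 415 miRNA genes tested, with a vertical line for each member. The lines stand at 0.39 for Mir301, 0.46 for Mir130a, 0.49 for Mir301b (dashed) and 0.76 for Mir130b, all within the body of the histogram.

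Genes with a related seed gave fewer reads than Mir130a and Mir130b in both libraries, while Mir152 stood above Mir301. The other annotated genes with AGUGCAA at bases 2 to 8 are shown because by seed they belong with the family.
miR-130c: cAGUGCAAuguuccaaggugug
miR-721: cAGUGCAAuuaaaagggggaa
miR-6341: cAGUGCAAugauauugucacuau
miR-6389: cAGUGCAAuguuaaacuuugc
All 4 genes, Mir130c, Mir721, Mir6341 and Mir6389, were without a single count. For counted reads this bounds each at 0.304 CPM in replicate 2 and at 0.396 CPM in replicate 1. Reads that mapped to several places are in no gene count, so the bounds do not cover them. No read was thus counted for a gene listed with this seed outside the family.

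The Mir148 and Mir152 family reads the same letters shifted by a base, with the seed CAGUGCA in capitals below.
miR-148a-3p: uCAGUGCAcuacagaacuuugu
miR-148b-3p: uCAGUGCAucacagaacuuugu
miR-152-3p: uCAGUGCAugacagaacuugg
These arms are known to repress the DNA methyltransferase gene DNMT1 or DNMT3B in human cells. Mir152 had 599.6 CPM in replicate 2 and 313 CPM in replicate 1, Mir148b 138 CPM in replicate 2 and 218 CPM in replicate 1, and Mir148a 43.0 CPM in replicate 2, against 41.4 CPM in replicate 1. The lowest Mir130b value, 1168 CPM, lay above the highest value of these genes, while the ranges of Mir301 and Mir152 overlapped across the libraries. Within each library Mir152 was above Mir301, by 599.6 against 379 CPM in replicate 2 and by 313 against 295 CPM in replicate 1. Mir152 was 1.96-fold higher in replicate 2 and Mir148b was 0.646 times its level in replicate 1, with adjusted p-values of 4.84e-181 and 1.7e-32 by the exact binomial test, and Mir148a gave an adjusted p of 0.566. The direction was thus not shared within the shifted-seed group.

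For each member the 3 genes nearest in level were found by Euclidean distance of log2(CPM + 1) over the 2 libraries, which describes read levels only. Mir130a was nearest to Mirlet7b, at a distance of 0.68, then to the muscle miRNA Mir133b (0.84) and Mir99b (0.87). Mirlet7b had 27399 CPM in replicate 2 and 18538 CPM in replicate 1. Mir133b had 10568 CPM in replicate 2 and 13610 CPM in replicate 1, so Mir130a lay between them in both libraries. Mir130b was nearest to Mir181c (0.18), Mir744 (0.22) and Mir615 (0.31). Mir301 was nearest to Mir181b-2 (0.28), Mir193a (0.36) and Mir92-1 (0.37), and Mir301b to Mir7654 (0.17), Mir6923 (0.18) and Mir181b-1 (0.19). Mir133b, Mir181b-1, Mir181b-2 and Mir92-1 share a run of 20 bases with another miRNA gene, so reads that mapped to several places are missing from their counts and their levels are uncertain. Genes close to Mir301b were thus among those with few reads, where a handful of counts sets the distance.

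**Figure D4:**
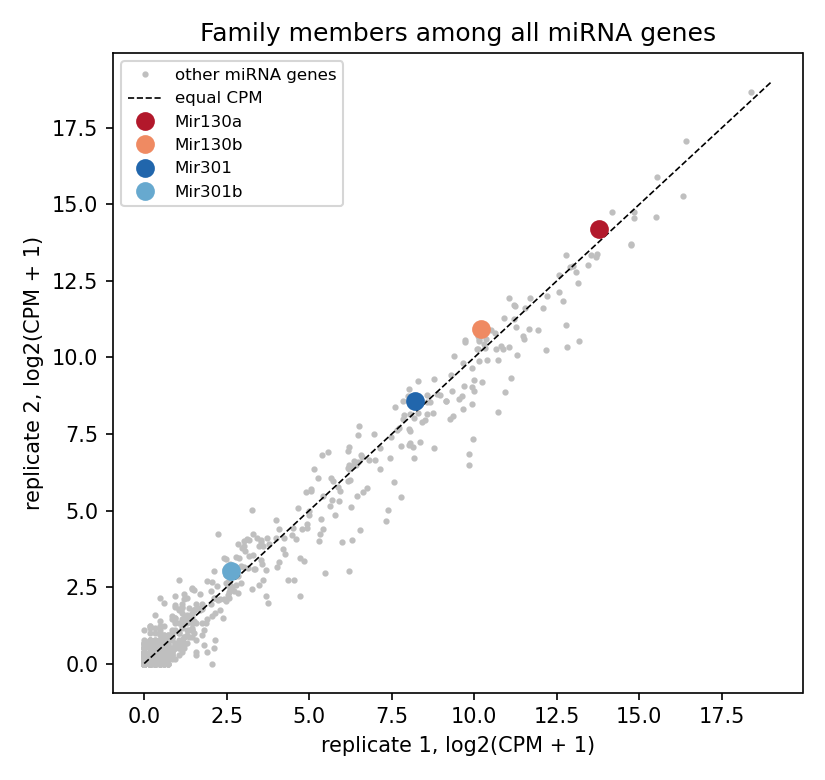
Level of every miRNA gene as log2(CPM + 1) in replicate 2 (vertical axis) against replicate 1 (horizontal axis), with the 4 members in colour and the dashed line at equal CPM. All 4 members lie just above the line, and they span the range from 16401 CPM for Mir130a to 6.12 CPM for Mir301b.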

How the data were processed

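Small RNA libraries from 2 biological replicates of 72 h C2C12 myotubes were used. The authors deposited a table of whole read counts for every annotated miRNA gene, made on mm10 with annotation M21, per the accompanying text. Which aligner, counter and trimming were applied is not given in the sources used here. The column of the gene's own strand was used. The lines for unmapped, multimapping and no-feature reads (23.1%, 17.9% and 5.57% of 18450359 reads in replicate 2, and 22.7%, 22.0% and 5.88% of 15349205 reads in replicate 1) name no gene and were left out. Reads that mapped to several places are therefore in no gene count.

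All 2202 identifiers matched GENCODE M21 (GRCm38, which is mm10), and sequences came from RefSeq (GRCm38.p6), which held hairpins of all 4 members. The 3′ arm of Mir301b is not listed there.

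CPM used all own-strand reads on miRNA genes. Ratios used a pseudocount of 0.5 reads. Libraries were compared per gene by an exact two-sided binomial test with TMM sizes (edgeR 4.0.16, R 4.3.3) over genes with 10 or more reads. The test was also run on simulated counts that held counting error only, with library totals in place of TMM sizes. That run cannot show how the test behaves under the spread between these libraries. There is no condition to contrast, so no quasi-likelihood test was fitted. The test measures counting error only. Folding used RNAfold 2.7.2, and the rest scipy 1.17.1 in Python 3.11.15. Named genes were the members, genes with the same or a shifted seed, the 3 nearest in level to each member, and annotated neighbours within 10 kb. Genes of the neighbouring pairs were named after their values were seen. Members and lists were chosen with earlier results of these data known. Alternatives were DESeq2 1.42.0 size factors or library totals, other read minimums, a 2-fold limit, strand ignored, other denominators and pseudocounts, and each library left out.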

Additional observations from a re-analysis of the deposited data

How the results depend on the processing

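The members' order, both ratios' directions and the members' direction between libraries were the same under every alternative run. The family share of 1.83% was 0.947% with all reads as the denominator and 2.98% without Mir206, the most abundant gene. It ran from 1.54% to 2.12% with each library left out. The 231 genes that differed between libraries fell to 88 when a 2-fold difference was also required, and no member was then called, while Mir130a, Mir130b and Mir301 were called under all other settings and Mir301b under none (adjusted p from 0.114 to 0.24 by the exact binomial test). With each library left out, the log2 ratio of Mir130a to Mir130b ran from 3.28 to 3.58 and that of Mir130b to Mir301b from 7.81 to 8.08. Per base of hairpin, an alternative chosen after seeing the data, these ratios were 3.79 and 8.19. No paired analysis was possible because the series has 1 group, so no replicate number is shared between groups; ratios between genes were taken within each library. Depth limits statements on Mir301b, with 109 reads, and on the seed-sharing genes without reads.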
